A study of Bos taurus with 56 samples.

Results

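The nuclear-encoded subunits of the mitochondrial respiratory chain and of ATP synthase were examined as a group in bovine oviduct epithelium. All gene symbols in the deposited read-count table that start with NDUFA, NDUFB, NDUFC, NDUFS, NDUFV, UQCR or ATP5, or that match COX4I, COX5, COX6, COX7 or COX8, were taken. The NDUFAF assembly factors and unnamed loci were left out, and a mean of at least 1 CPM (counts per 1e6 counts assigned to genes in a library) over all libraries was required. The symbols gave 74 genes and the level rule left 67 of the 31903 genes in the table, of which 26260 had at least 1 count. Complex I contributed 31 genes, complex III 8, complex IV 11 and ATP synthase 17. Complex IV includes NDUFA4 and the supercomplex factor COX7A2L, and the ATP synthase genes include ATP5S and ATP5SL, which carry the old ATP synthase names but are not subunits of the enzyme.

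The RNA-seq libraries were made from epithelial cells scraped from the ampulla and the isthmus of both oviducts, the ipsilateral one next to the ovary that bore the corpus luteum (CL) and the contralateral one. The animals were 14 Holstein females that had not been inseminated, 4 lactating and 5 non-lactating post-partum cows and 5 nulliparous heifers, which gave 12 conditions and 56 libraries. The cows were primiparous, about 60 days post-partum, and had either been dried off at calving and never milked or been milked daily. Every animal, heifers included, received an intravaginal progesterone device, a prostaglandin analogue and buserelin, and was slaughtered on Day 3 after synchronized estrus. Animals are called Heifer A to E, Non-lactating A to E and Lactating A to D, in the order of the animal numbers in the table. In bulk samples such as these, fewer cells of a type and less RNA per cell cannot be told apart.

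Complex I passes electrons from NADH to ubiquinone, complex III passes them on to cytochrome c and complex IV to oxygen, and the proton gradient that these complexes build drives ATP synthase. Each complex joins a few core subunits, several of them encoded in the mitochondrial genome, with many small nuclear-encoded accessory subunits that assemble and stabilize it. In the oviduct epithelium, beating cilia, secretion and ion transport all consume ATP.

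The libraries held between 1901454 and 6836850 counts on genes, with a median of 4931502.5. Counts on genes were 8.66% to 13.7% of all alignments, and 37.4% to 61.3% of alignments were not unique and were not counted. Of 56 libraries, 4 were doubtful, all of them ipsilateral ampulla. The library numbered as Lactating B was labelled non-lactating and that numbered as Non-lactating C was labelled lactating, and the libraries of Heifer B and Non-lactating B each resembled the other animal. All other libraries correlated with the remaining libraries of their own animal at r of 0.48 or more. The library numbered Lactating B correlated with the other libraries of Non-lactating C at r of 0.73, against 0.10 with those of its own number. That numbered Non-lactating C correlated with those of Lactating B at 0.83, against 0.14, so both resembled an animal of the group on their label. These r values used genes chosen in the same libraries, by animal number, for large variance between animals over that within animals. That choice favours a high r with the own animal. Over 10616 genes not chosen in this way, deviations from condition means correlated between the isthmus sides of an animal at r from -0.043 to 0.55 (14 pairs). The doubtful libraries were kept under their labels, and the ampulla and ipsilateral region counts are given with and without them. Contralateral isthmus libraries were shallower than ipsilateral ones, with a median of 4152894 against 5242322 counts in heifers, 4130991 against 5681863 in non-lactating cows and 4662131 against 4969556 in lactating cows, and the part of depth in the side differences was not tested.

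Over all animals, the 67 genes were lowest in the contralateral isthmus and highest in the ipsilateral isthmus. For each library, the level of the group was taken as the mean over the 67 genes of log2 CPM minus the mean of that gene over all libraries. In the contralateral isthmus this level ran from -0.48 to -0.10 with a median of -0.26 (n = 14), and in the ipsilateral isthmus it ran from -0.26 to 0.43 with a median of 0.20. The ampulla lay between them, at a median of -0.064 on the contralateral side and 0.039 on the ipsilateral side. By condition, the mean was -0.30 ± 0.12 in the contralateral isthmus of heifers, -0.27 ± 0.17 in that of non-lactating cows and -0.23 ± 0.10 in that of lactating cows (SD, n = 5, 5 and 4). On the ipsilateral side it was 0.24 ± 0.23, 0.13 ± 0.27 and 0.17 ± 0.077. In the ampulla the means were 0.053 ± 0.30, 0.052 ± 0.21 and -0.15 ± 0.065 contralaterally and 0.063 ± 0.19, 0.17 ± 0.12 and 0.034 ± 0.20 ipsilaterally, in the same order of groups. In non-lactating cows the ipsilateral ampulla mean was thus above that of the ipsilateral isthmus, within their spread. Of the 67 genes, 28 had their lowest condition mean in the contralateral isthmus of heifers, 14 in that of non-lactating cows and 5 in that of lactating cows. The ipsilateral isthmus of heifers held the highest condition mean of 28 genes and the ipsilateral ampulla of non-lactating cows that of 11, against 1 in their ipsilateral isthmus. Single libraries stood apart from this order. The ipsilateral isthmus of Non-lactating E (-0.26) and of Heifer D (-0.13) lay among the contralateral libraries, and the contralateral ampulla of Heifer E (0.55) was above every other library.

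**Figure D1:**
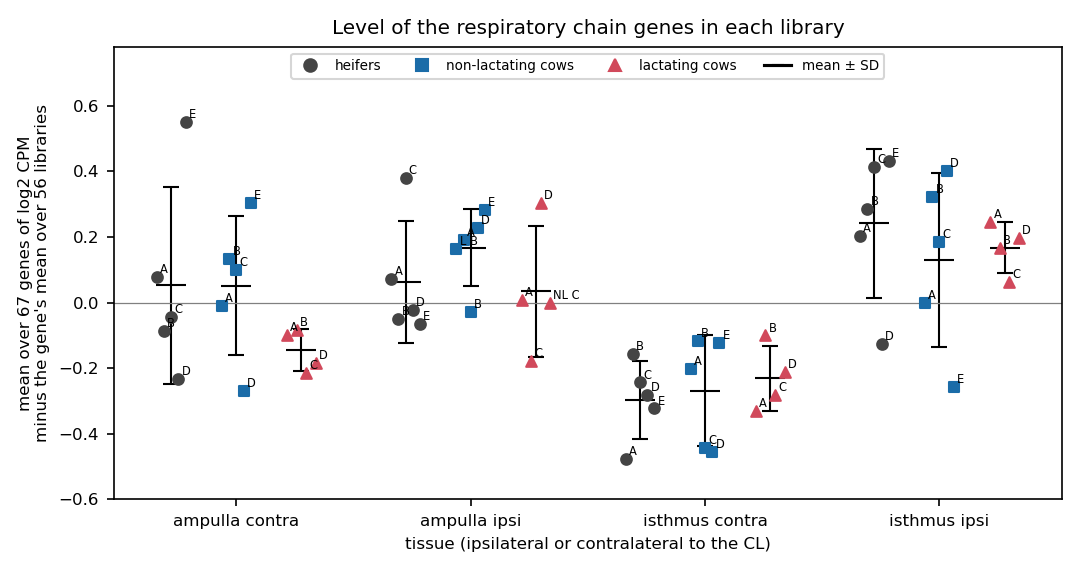
Level of the 67 respiratory chain genes in each of the 56 libraries, as the mean of log2 CPM minus each gene's mean over all libraries, by tissue and metabolic group. Letters name the animals, with NL or L added where the animal number belongs to another group, and bars are mean ± SD. All 14 contralateral isthmus libraries lie below 0, between -0.48 and -0.10.

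**Figure D2:**
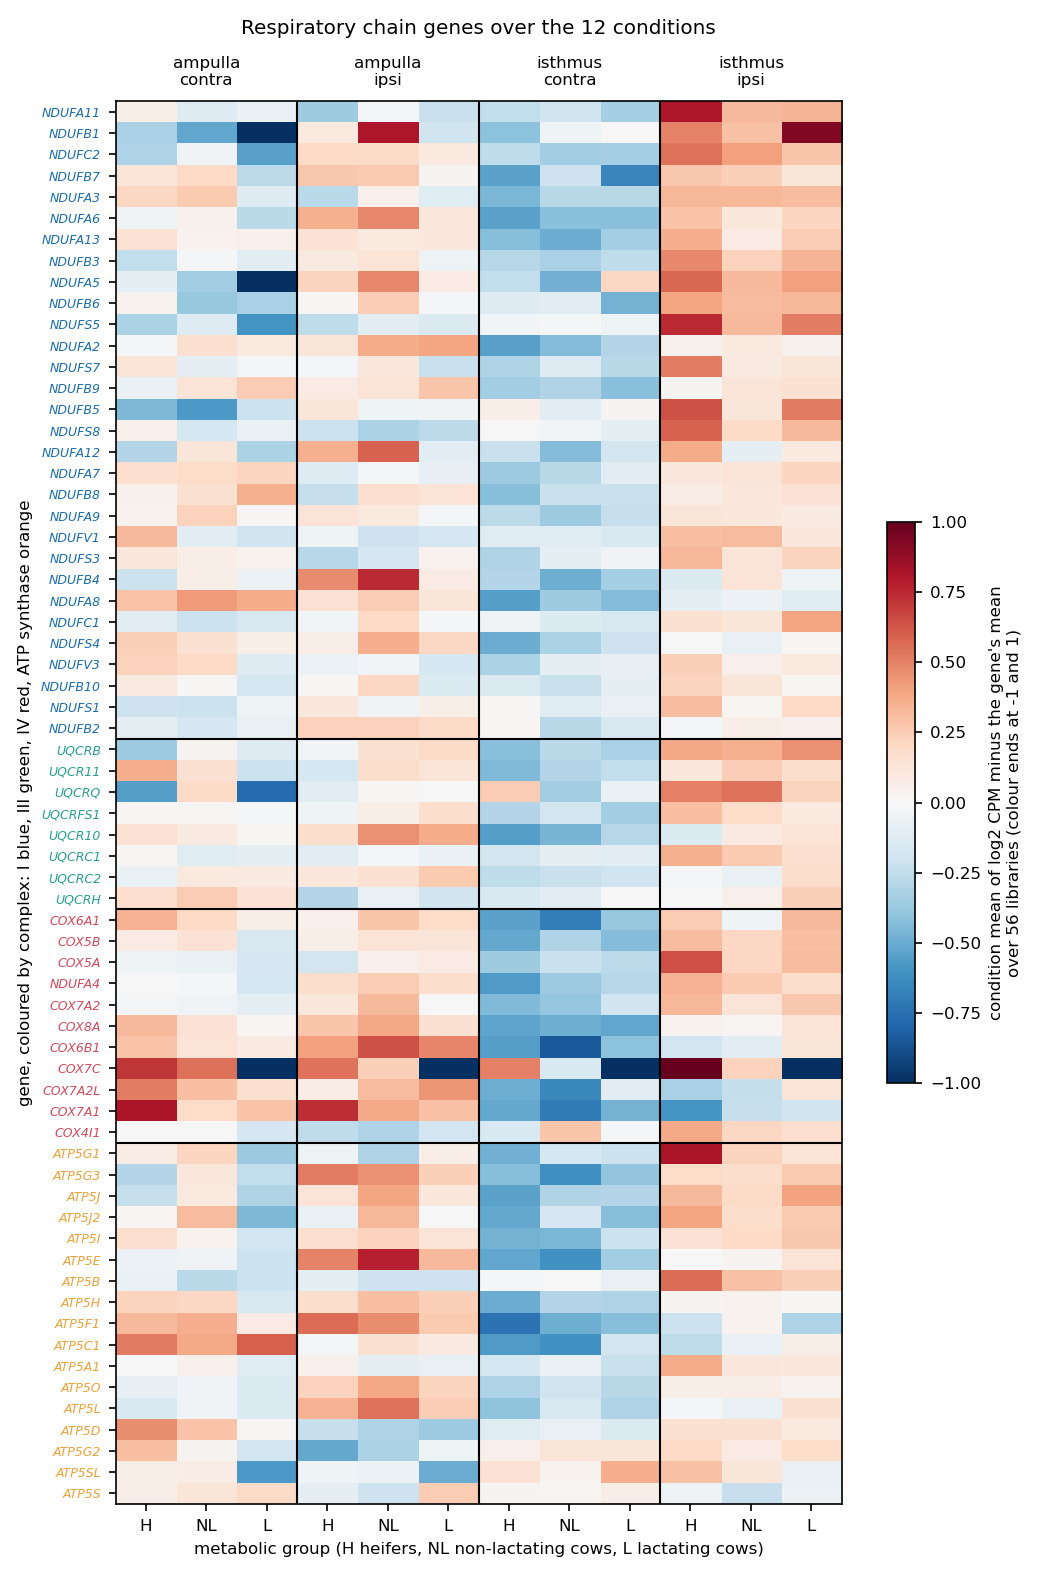
Condition means of log2 CPM, minus each gene's mean over the 56 libraries, for 66 of the 67 genes (rows, coloured by complex) in the 12 conditions (columns). Within each complex, genes are ordered by the difference between ipsilateral and contralateral isthmus, and values beyond -1 and 1 take the end colours. The contralateral isthmus columns are mostly blue and the ipsilateral isthmus columns mostly red.

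The comparison of the isthmus on the CL side with the opposite isthmus asked whether proximity to the CL went with a different transcriptome. Ipsilateral minus contralateral differences were tested within each metabolic group and as the mean of the 3 groups, with edgeR's quasi-likelihood test and Benjamini-Hochberg adjustment over all genes tested. A gene was called when its adjusted p was under 0.05.

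In heifers, 32 of 66 respiratory chain genes tested were higher in the ipsilateral isthmus and 0 were lower, where 5.71% of all genes tested were called higher and 4.34% lower. The median log2 fold change was 0.53 for the respiratory chain genes and -0.015 for all genes. At an unadjusted p under 0.05, 50 of the 66 passed, all higher, against 27.2% of all genes in either direction. Complex I gave 16 of 30 calls, complex III 3 of 8, complex IV 7 of 11 and ATP synthase 6 of 17. ATP5G1, one of the 3 genes for the c subunit of the ATP synthase rotor ring, had the largest difference. Its CPM was 23.9, 23.3, 17.7, 15.9 and 19.2 in the ipsilateral isthmus of Heifers A to E and 8.6, 5.3, 8.2, 7.7 and 9.8 on the contralateral side. The sides did not overlap, and the log2 fold change was 1.29 (SE 0.19, adjusted p = 0.0056). NDUFA11, an accessory subunit in the membrane arm of complex I, was at 54.4, 39.6, 55.4, 33.7 and 38.6 CPM ipsilaterally and at 22.8, 14.2, 26.5, 21.0 and 21.1 CPM contralaterally. Every ipsilateral library was above every contralateral library, with a log2 fold change of 1.03 (SE 0.18, adjusted p = 0.00757). COX5A, a subunit of cytochrome c oxidase on the matrix side, was at 67.5, 63.6, 66.9, 54.6 and 62.4 CPM ipsilaterally against 30.4, 35.1, 29.9, 31.4 and 29.3 CPM contralaterally. It had the lowest adjusted p of the group (0.00131), with a log2 fold change of 0.99 (SE 0.098), and little spread within either side.

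In 21 of the 66 genes all 5 ipsilateral libraries of heifers were above all 5 contralateral ones, against 5.59% of all genes. Both catalytic-head subunits of ATP synthase were among them. ATP5B (beta) was at 281 ± 21 CPM ipsilaterally and 188 ± 17 CPM contralaterally (SD, n = 5), and ATP5A1 (alpha) at 231 ± 24 and 158 ± 6.9 CPM. The count in heifers changed when an animal was left out: it was 7 without Heifer E, 13 without Heifer A, 18 without Heifer B, 20 without Heifer C and 34 without Heifer D. The share of all genes called in these smaller fits is not given here, and the part of the smaller number of animals was not tested. When all 56 libraries shared a single fit, 21 were called, where 5.21% of all genes were.

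In non-lactating cows, 1 of 67 genes was called higher and 0 lower, where 2.94% of all genes were called higher and 2.17% lower. The median log2 fold change was 0.43, and 33 of the 67 genes passed an unadjusted p under 0.05, against 21.5% of all genes. In 3 genes the ipsilateral libraries were all above the contralateral ones, against 3.81% of all genes. The called gene was NDUFC2, an accessory subunit in the membrane arm of complex I. It was at 56.7, 68.3, 49.7, 68.4 and 38.4 CPM in the ipsilateral isthmus of Non-lactating A to E and at 27.2, 38.3, 36.2, 26.8 and 35.2 CPM contralaterally. The sides did not overlap, but they nearly met, and the log2 fold change was 0.78 (SE 0.18, adjusted p = 0.0258). The call was lost without Non-lactating A (adjusted p = 0.102), B (0.0674), C (0.0628) or D (0.116), which left 0 genes called. Without Non-lactating E, 10 were called. The share of all genes called in these smaller fits is not given here. With the animal as a block, 4 genes were called, where 7.48% of all genes were: NDUFC2, UQCRB, NDUFA2 and COX6B1. DESeq2 called 7 (5.37% of all genes), and the fit of all 56 libraries 6 (4.23%).

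In lactating cows, 0 of 66 genes passed edgeR's test after adjustment, where 0.144% of all genes were called higher and 0.0432% lower. At an unadjusted p under 0.05, 40 of the 66 passed, against 12.2% of all genes, and the smallest adjusted p was 0.0553, for UQCRB. The median log2 fold change was 0.39, and in 28 of the 66 genes every ipsilateral library was above every contralateral one, against 4.34% of all genes. UQCRB, the ubiquinone-binding accessory subunit of complex III, was at 49.5, 41.0, 47.5 and 51.1 CPM in the ipsilateral isthmus of Lactating A to D and at 25.9, 27.6, 31.0 and 24.7 CPM contralaterally. With the animal as a block, 6 genes were called (UQCRB, NDUFC2, NDUFB6, NDUFA3, NDUFA13 and COX8A), where 2.32% of all genes were. DESeq2 called 11 (1.45% of all genes), and the fit of all 56 libraries 1 (0.411%). With that block, NDUFC2 and UQCRB were called higher in the isthmus of each of the 3 groups, and 34 genes were called in at least 1 group. Without the block, 0 genes were called higher in all 3 groups and 32 in at least 1. The share of all genes for these counts is not given here.

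As the mean of the 3 groups, 53 of the 67 genes were higher in the ipsilateral isthmus and 0 were lower, where 14.3% of all genes were called higher and 12.9% lower. The median log2 fold change was 0.47, against -0.015 for all genes. Without any single animal the count stayed between 49 and 59. Complex I gave 27 calls of 31 (core subunits 6 of 6, accessory subunits 21 of 25) with a median of 0.45, complex III 6 of 8 with 0.47, complex IV 7 of 11 with 0.58 and ATP synthase 13 of 17 with 0.37.

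UQCRB had the lowest adjusted p (2.66e-06). Its CPM ran from 27.4 to 65.1 with a median of 46.3 in the ipsilateral isthmus (n = 14) and from 23.2 to 32.1 with a median of 26.6 in the contralateral isthmus, and it was higher ipsilaterally in 14 of 14 animals. The log2 fold change was 0.76 (SE 0.095). The largest change was that of NDUFB1, a small accessory subunit in the membrane arm of complex I, with a log2 fold change of 0.92 (SE 0.27, adjusted p = 0.0138). It was also the complex I gene with the fewest counts, at 0.90 to 5.5 CPM ipsilaterally and 0.44 to 2.9 CPM contralaterally, and in the fit of all 56 libraries it was not called (adjusted p = 0.0653).

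Among the ATP synthase genes, all 5 subunits of the catalytic F1 head and central stalk were called higher: ATP5A1 (log2 fold change 0.34), ATP5B (0.38), ATP5C1 (0.36), ATP5D (0.24) and ATP5E (0.54). The c subunit genes ATP5G1 (0.70) and ATP5G3 (0.74) were called and the third, ATP5G2 (0.054, adjusted p = 0.702), was not. Both genes that are not subunits were near 0 or below, ATP5SL at -0.029 (adjusted p = 0.912) and ATP5S at -0.22 (adjusted p = 0.346). Of the other complexes, the genes not called were NDUFB2, NDUFB4, NDUFB10 and NDUFV3 of complex I, UQCRH and UQCRQ of complex III, and COX4I1, COX7A1, COX7A2L and COX7C of complex IV. Their log2 fold changes lay between 0.17 (NDUFB2) and 0.60 (COX7C). The last ATP synthase gene not called was ATP5F1, subunit b of the peripheral stalk, at 0.37 (adjusted p = 0.0526). With the animal as a block, ATP5C1 (adjusted p = 0.0504) and NDUFS4 (0.0554) were not called, and ATP5F1 (0.0293), NDUFV3 (0.0238) and UQCRQ (0.0406) were.

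**Figure D3:**
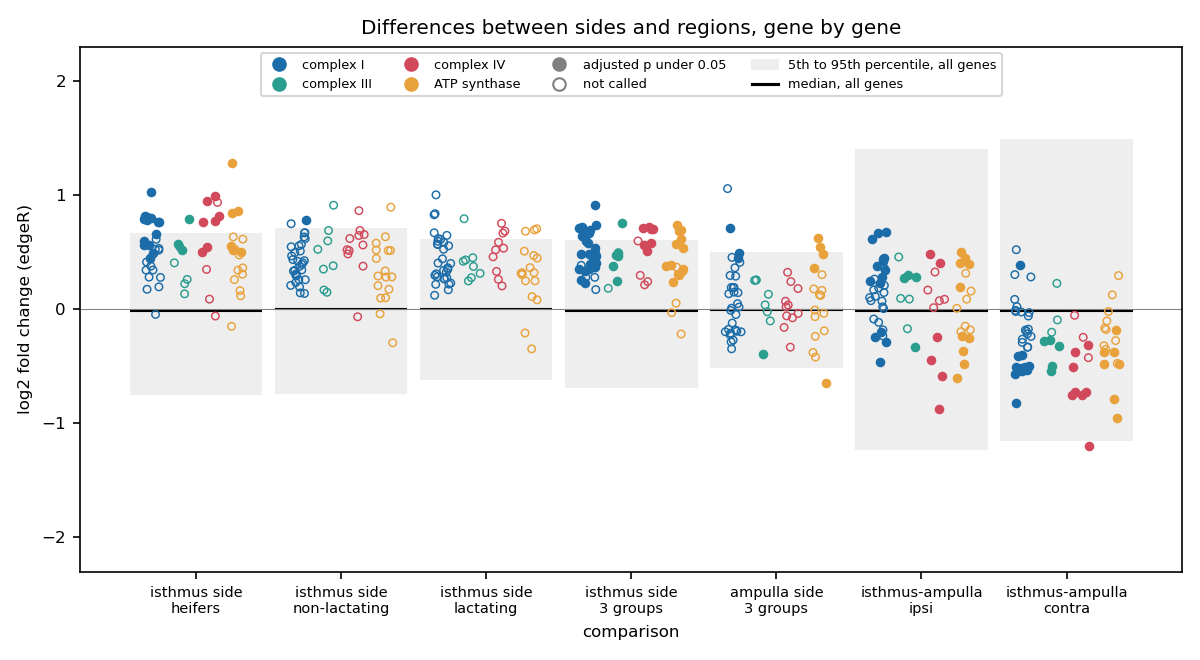
Log2 fold change from edgeR of each respiratory chain gene (points, coloured by complex) in 7 comparisons of sides and regions. Filled points have an adjusted p under 0.05, grey boxes span the 5th to the 95th percentile of all genes tested, and black lines are the medians of all genes. In the isthmus side comparison of the 3 groups, 53 points are filled and all of these are above 0.

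Counted by animal, 44 of the 67 genes were higher in the ipsilateral isthmus of at least 12 of 14 animals, against 13% of all genes, and 0 were lower in at least 12. In all 14 animals, 9 genes were higher, against 3.07% of all genes, among them NDUFA11 and NDUFC2 of complex I, UQCRB and UQCRFS1 of complex III, and ATP5B. Of 65 genes tested in each metabolic group, 59 (90.8%) had a positive log2 fold change in all 3 groups, against 30.7% of all genes. The size differed between animals. The median difference over the 67 genes was 0.71, 0.49, 0.66, 0.091 and 0.74 in Heifers A to E, 0.18, 0.46, 0.59, 0.89 and -0.14 in Non-lactating A to E, and 0.62, 0.24, 0.36 and 0.42 in Lactating A to D. Non-lactating E was the only animal with a median below 0, with 26 of the 67 genes higher ipsilaterally.

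**Figure D4:**
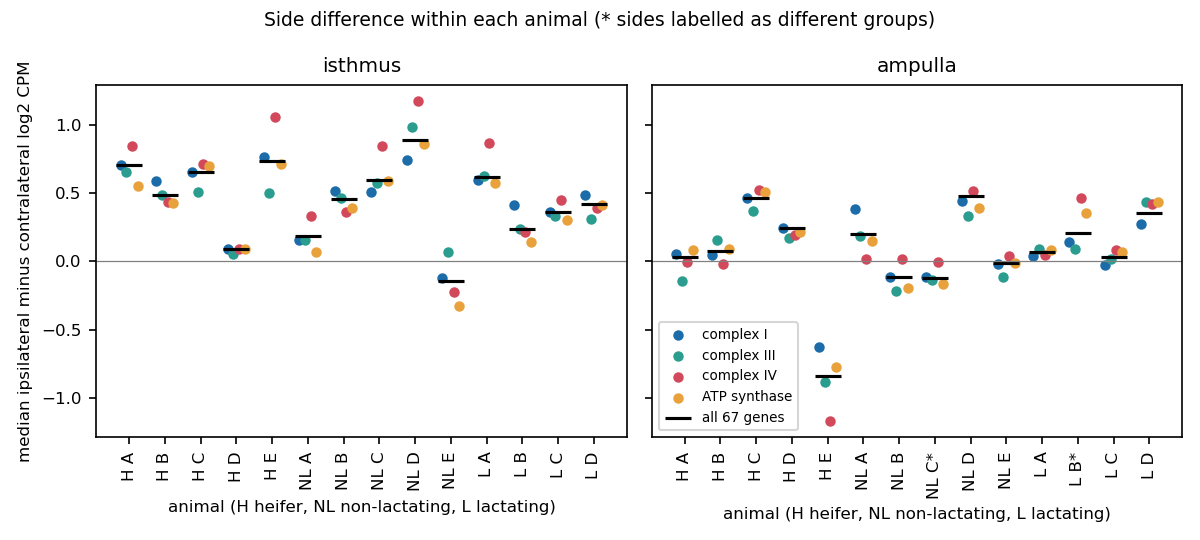
Median ipsilateral minus contralateral difference in log2 CPM for each animal (horizontal axis) in the isthmus (left) and the ampulla (right), for each complex (coloured points) and all 67 genes (black bars). In the isthmus 13 of 14 bars are above 0, and in the ampulla they lie on both sides of 0 with Heifer E at -0.84.

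Whether the side difference in the isthmus varied with metabolic status was tested as an interaction. Of the 67 genes, 0 passed edgeR's test, where 0% of all genes did, 2 passed an unadjusted p under 0.05, and DESeq2 called 0. At this number of animals, a difference in the side effect between metabolic groups was not detected, although more genes passed the threshold in heifers than in cows.

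Other mitochondrial genes were compared between the isthmus sides as the mean of the 3 groups, where 14.3% of all genes were called higher and 12.9% lower. Complex II feeds electrons into the same chain from succinate, and both of its subunits tested were called higher ipsilaterally, SDHB (log2 fold change 0.38) and SDHC (0.59). So were cytochrome c, CYCS (1.19, SE 0.16), which was at a median of 15.8 CPM ipsilaterally and 7.08 CPM contralaterally with only a small overlap, and cytochrome c1, CYC1 (0.35). Of 6 carriers, porins and the ATP synthase inhibitor, 5 were higher, among them the ADP/ATP carrier SLC25A4 (0.78) and ATPIF1 (0.48). Of 33 assembly factors 13 were higher and 0 lower, with a median of 0.25, and of 73 mitochondrial ribosomal protein genes 24 were higher and 0 lower, with a median of 0.23. Cytosolic ribosomal protein genes gave 3 higher and 0 lower of 77, with a median of 0.066. Of 15 regulators of mitochondrial biogenesis, 2 were higher, near the share of all genes, the nuclear receptor ESRRA (0.35) and the coactivator PPRC1 (0.24), and 3 were lower, ESRRG (-0.85), SIRT1 (-0.33) and TFB1M (-0.35). The coactivator PPARGC1A was at a median of 33.9 CPM ipsilaterally and 30.9 CPM contralaterally and was not called.

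Markers of cell types were compared between the isthmus sides as well. The epithelial keratins KRT8 (log2 fold change 0.51) and KRT18 (0.43) were higher ipsilaterally, which makes 2 of 5 secretory epithelium markers, and of 12 ciliated cell markers CAPS (0.50) was higher and DNAH5 (-0.47) lower. The 4 smooth muscle, 6 fibroblast, 2 pericyte and 5 leukocyte markers tested were not called, and of 3 endothelial markers KDR (-1.31) was lower. The smooth muscle gene MYH11 had a log2 fold change of 0.71 (adjusted p = 0.0504). The summed smooth muscle markers ran from 25.8 to 84.8 CPM contralaterally and from 49.8 to 95.5 CPM ipsilaterally in heifers, from 33.7 to 62.9 and from 37.0 to 82.9 CPM in non-lactating cows, and from 11.8 to 44.0 and from 32.2 to 81.5 CPM in lactating cows. The summed ciliated markers ran from 5819 to 8061 CPM contralaterally and from 4735 to 7344 CPM ipsilaterally over all groups. Red blood cell markers summed to at most 0.72 CPM. The part of keratins, muscle and endothelial markers in the side difference was not tested.

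In the ampulla the sides differed in few respiratory chain genes and in both directions. In heifers, 0 of 67 genes were called with edgeR, where 0% of all genes were, 11 passed an unadjusted p under 0.05 (9.2% of all genes) and DESeq2 called 0. In lactating cows, 0 of 65 were called, where 0% of all genes were, 9 passed an unadjusted p under 0.05 (4.26% of all genes) and DESeq2 called 0, while in 13 of the 65 the ipsilateral libraries were all above the contralateral ones, against 2.04% of all genes. In non-lactating cows, 1 of 67 was called, where 0.0947% of all genes were. It was ATP5E, the epsilon subunit in the central stalk of ATP synthase. Its CPM was 144, 104, 148 and 132 in the ipsilateral ampulla of Non-lactating A, B, D and E and 125 in the library numbered Lactating B, and 81.3, 80.4, 71.9, 63.7 and 72.6 contralaterally in Non-lactating A to E. The sides did not overlap, with a log2 fold change of 0.81 (SE 0.13, adjusted p = 0.0319). The call was lost when Non-lactating A (adjusted p = 0.271), B (0.0529), C (0.0713), D (0.149) or E (0.0866) was left out, and kept without the library numbered Lactating B. DESeq2 called 2 genes, ATP5E and NDUFA5.

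As the mean of the 3 groups, 7 of 67 genes were higher and 2 lower in the ipsilateral ampulla, where 2.23% of all genes were called higher and 1.86% lower. The median log2 fold change was 0.039. ATP5E was higher in 14 of 14 animals, with 82.0 to 148 CPM and a median of 107 ipsilaterally and 51.3 to 103 CPM and a median of 72.2 contralaterally (log2 fold change 0.63, SE 0.098, adjusted p = 0.000629). The other genes called higher were ATP5L (0.48), ATP5O (0.36), NDUFC2 (0.45), ATP5G3 (0.55), NDUFB4 (0.50) and NDUFA5 (0.72). With the animal as a block in edgeR, COX6B1 (0.33, adjusted p = 0.0341) and NDUFA6 (0.40, adjusted p = 0.0285) were called higher as well. This block pairs the doubtful libraries by their animal numbers. NDUFA5, an accessory subunit in the peripheral arm of complex I, was at 11.8 to 29.4 CPM ipsilaterally and 1.56 to 28.9 CPM contralaterally, and was higher in 13 of 14 animals. Its adjusted p of 0.0352 rose to between 0.0518 and 0.0836 when any 1 of Heifers B, C and D, Lactating A and B or the 5 non-lactating animals was left out.

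The genes called lower in the ipsilateral ampulla were UQCRH, the hinge subunit of complex III (log2 fold change -0.39, SE 0.087, adjusted p = 0.0105), and ATP5D, the delta subunit of ATP synthase (-0.65, SE 0.17, adjusted p = 0.0297). UQCRH was at 65.1 to 113 CPM ipsilaterally and 85.5 to 146 CPM contralaterally, and ATP5D at 30.3 to 63.7 and 38.6 to 195 CPM. Each was lower ipsilaterally in 13 of 14 animals, and in 9 of 10 when the animals with doubtful libraries were left out. The highest ATP5D value was that of the contralateral ampulla of Heifer E, where the other 4 heifers were at 58.6 to 73.5 CPM. ATP5D was not called without Lactating A (adjusted p = 0.0589), Lactating D (0.0571), Non-lactating B (0.0555), C (0.0551) or E (0.0519). ATP5C1, the gamma subunit of the central stalk, was also lower in 13 of 14 animals (log2 fold change -0.42, SE 0.14). It was not called by edgeR (adjusted p = 0.0792), but it was called by DESeq2 (0.0366) and by edgeR with the animal as a block (0.00372). That block pairs the doubtful libraries by their animal numbers. Of the 10 animals without a doubtful library, 9 were lower for ATP5C1.

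Without the 4 doubtful libraries, 6 genes were higher and 1 lower in the ampulla, and NDUFA5 (adjusted p = 0.0944) and ATP5D (0.132) were not called. The share of all genes called in that fit is not given here. By animal, the median difference over the 67 genes in the ampulla ran from -0.84 in Heifer E to 0.48 in Non-lactating D, and 10 genes were higher and 3 lower in at least 12 of 14 animals, against 5.99% and 4.87% of all genes. Of the 10 animals without a doubtful library, at least 9 were higher for 13 genes and lower for 3, against 6.36% and 5.01% of all genes, and ATP5E was higher in all 10. In heifers the median log2 fold change in the ampulla was -0.074, and without Heifer E it was 0.19. Of the mitochondrial genes outside the group, CYCS (log2 fold change 0.65) and VDAC1 (0.39) were higher ipsilaterally and PPARGC1A (-0.68) lower, while no assembly factor and no cell type marker tested was called with edgeR. Whether the side difference in the ampulla varied with metabolic status was tested as an interaction, and 0 of 67 genes passed with edgeR, 0 passed an unadjusted p under 0.05 and DESeq2 called 0, where 0% of all genes were called.

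**Figure D5:**
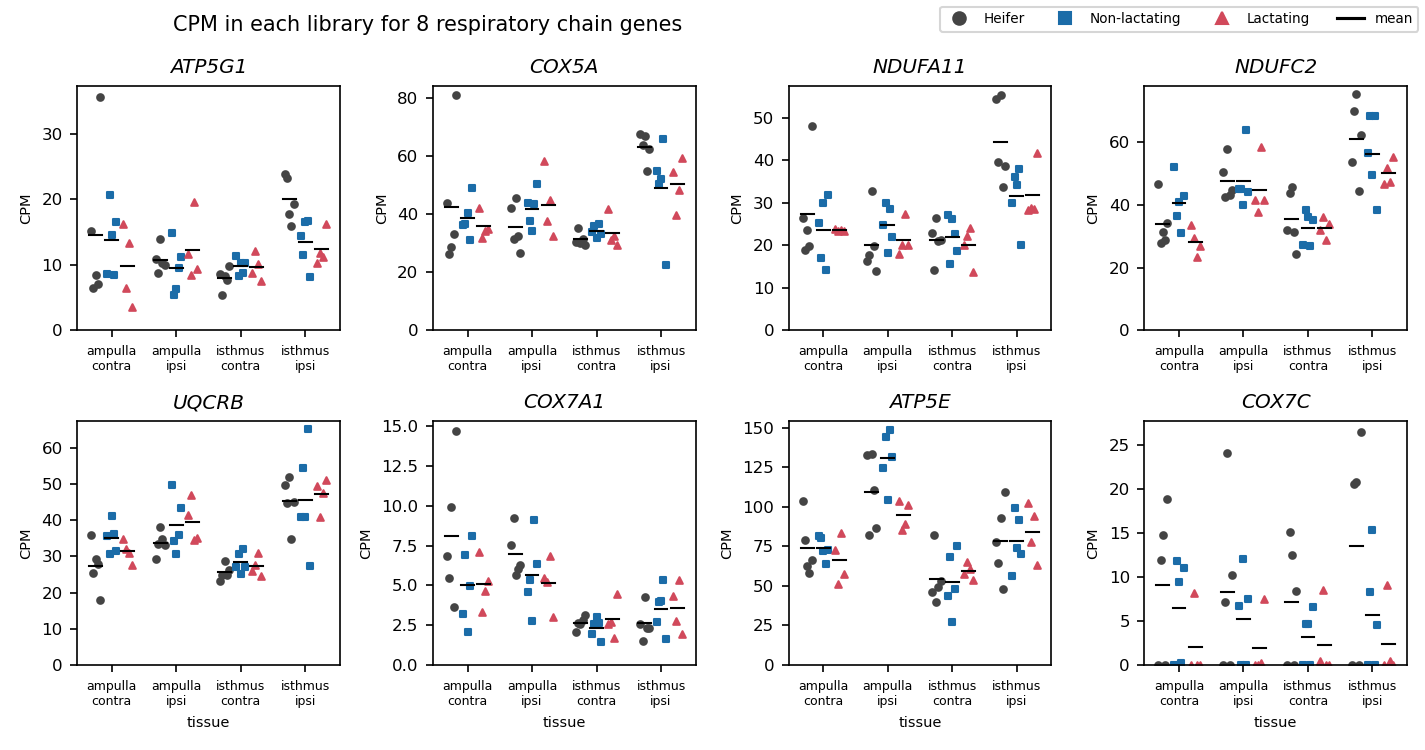
CPM in each library for 8 respiratory chain genes, by tissue and metabolic group, with bars at the group means. ATP5G1, COX5A, NDUFA11, NDUFC2 and UQCRB have their highest median in the ipsilateral isthmus and ATP5E in the ipsilateral ampulla, COX7A1 has lower medians in the isthmus than in the ampulla on both sides, and COX7C is at or near 0 in 28 of the 56 libraries.

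The difference between regions was then tested on each side of the CL as the mean of the 3 groups. On the ipsilateral side, 21 of 67 genes (31.3%) were higher and 14 (20.9%) lower in the isthmus than in the ampulla. Of all genes, 24.1% were called higher and 25.5% lower, so both counts lay near the share of all genes. The median log2 fold change was 0.10. On the contralateral side, 1 gene was higher and 31 were lower in the isthmus, where 21.1% of all genes were called higher and 21.4% lower, and the median was -0.31. The median of all genes was close to 0 on both sides. By animal, 19 genes were higher and 5 lower in the ipsilateral isthmus of at least 12 of 14 animals (all genes 21.4% and 19.1%). Of the 10 animals without a doubtful library, at least 9 were higher for 12 genes and lower for 6 (19.9% and 18.5%). In the contralateral isthmus 1 gene was higher and 24 lower in at least 12 of 14 animals (20.2% and 18.4%).

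On the ipsilateral side the 3 called genes with the largest increase in the isthmus were of complex I. NDUFS5, an accessory subunit, was at 20.7 to 47.9 CPM with a median of 29.3 in the isthmus and 11.8 to 30.2 CPM with a median of 18.2 in the ampulla (log2 fold change 0.68, SE 0.13, adjusted p = 6e-05). NDUFA11 was at 20.1 to 55.4 CPM with a median of 35.2 and 13.9 to 32.8 CPM with a median of 20.1 (0.67, SE 0.13, adjusted p = 6.61e-05). NDUFS8, a core subunit that carries iron-sulphur clusters, was at 34.4 to 64.9 CPM with a median of 46.0 and 25 to 48.5 CPM with a median of 28.3 (0.61, SE 0.12, adjusted p = 9.68e-05). It was higher in 14 of 14 animals, and in all 10 without a doubtful library. Of the 67 genes, 3 were higher in all 14 animals, against 9.17% of all genes. All 6 core subunits of complex I had a positive log2 fold change, 4 of them called, with a median of 0.36. The F1 subunits split, with ATP5A1 (0.20), ATP5B (0.50) and ATP5D (0.40) higher and ATP5E (-0.48) lower.

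The genes lower in the ipsilateral isthmus were led by COX7A1, the isoform of the subunit best known from heart and skeletal muscle. It was at 1.51 to 5.37 CPM with a median of 2.73 in the isthmus and at 2.76 to 9.26 CPM with a median of 5.86 in the ampulla (log2 fold change -0.88, SE 0.21, adjusted p = 0.000884). ATP5F1 was at 89.0 to 225 CPM with a median of 139 and 147 to 279 CPM with a median of 202 (-0.60, SE 0.12, adjusted p = 0.00011). COX6B1, a subunit of cytochrome c oxidase on the intermembrane side, was at 177 to 375 CPM with a median of 274 and 294 to 544 CPM with a median of 403 (-0.58, SE 0.10, adjusted p = 2.37e-05). For each of these 3 genes the ranges overlapped between regions. Without the 4 doubtful libraries, 17 genes were higher and 15 lower, and the share of all genes in that fit is not given here.

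On the contralateral side COX7A1 again had the largest decrease, with 1.43 to 4.46 CPM in the isthmus and 2.07 to 14.7 CPM in the ampulla (log2 fold change -1.20, SE 0.24, adjusted p = 0.000156). ATP5C1 was at 119 to 276 CPM with a median of 200 in the isthmus and 247 to 544 CPM with a median of 375 in the ampulla (-0.96, SE 0.13, adjusted p = 7e-07). NDUFA8 was at 26.3 to 44.4 CPM in the isthmus and 48.8 to 78.6 CPM in the ampulla (-0.82, SE 0.097, adjusted p = 6.58e-08), and was the only respiratory chain gene whose 14 libraries from each region did not overlap, against 1.35% of all genes that were lower in this way. The decreases spanned complex I (11 of 31, all accessory), complex III (5 of 8), complex IV (8 of 11) and ATP synthase (7 of 17), while 0 of the 6 complex I core subunits were called with edgeR. The single gene higher in the contralateral isthmus was NDUFB5, an accessory subunit of complex I, at 8.79 to 15.5 CPM in the isthmus and 6.64 to 16.8 CPM in the ampulla (0.39, SE 0.14, adjusted p = 0.0233). It was not called without Heifer C (adjusted p = 0.0564), Lactating C (0.0561), Lactating D (0.0808) or Non-lactating A (0.0515).

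Other gene groups moved with region. Of 12 ciliated cell markers tested, 11 were lower in the isthmus than in the ampulla on the ipsilateral side and 12 on the contralateral side, with FOXJ1, the regulator of ciliated cell identity, at log2 fold changes of -0.71 and -0.57. MYH11 was higher in the isthmus by 5.12 and 4.86 on the log2 scale, while the muscle genes SMTN (-1.05 and -1.92) and DES (-0.74 and -1.38) were lower. Among regulators of mitochondrial biogenesis, PPARGC1A (1.65 and 0.80) and ESRRA (0.74 and 0.62) were higher and ESRRG (-1.58 and -1.32) was lower in the isthmus. Both complex II subunits were lower in the contralateral isthmus (SDHB -0.33 and SDHC -0.37), while on the ipsilateral side they were at 0.19 and 0.012 and were not called. The part of cell composition in these differences was not tested.

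Since the median difference between regions had the opposite sign on each side, the side difference in the isthmus minus that in the ampulla was tested directly. It was higher for 20 of 67 genes and lower for 0, where 3.19% of all genes were called higher and 1.76% lower, and the median was 0.39. The calls were 10 of complex I, NDUFA3, NDUFA8, NDUFA11 and NDUFS8 among them, and UQCRB, UQCRC1 and UQCRH of complex III, COX5A, COX5B and COX6A1 of complex IV, and ATP5B, ATP5C1, ATP5D and ATP5G1. NDUFA3, an accessory subunit of complex I, had the largest value (0.97, SE 0.19, adjusted p = 0.00168). It was at a median of 60.2 CPM in the ipsilateral and 36.2 CPM in the contralateral isthmus, and at 43.1 and 42.7 CPM in the ampulla. ATP5G1 (0.94, SE 0.29, adjusted p = 0.0464) was at 16.1 and 8.76 CPM in the isthmus and at 10.1 and 11.0 CPM in the ampulla. Its highest value in the contralateral ampulla, 35.7 CPM, was that of Heifer E. The count fell to 8 without Heifer E, to 9 without Non-lactating C and to 13 without Lactating A, and to 8 without the 4 doubtful libraries. ATP5G1 was not called without any 1 of Heifers A, B and E, Lactating A and C or Non-lactating A to D (adjusted p from 0.0608 to 0.127), or without the doubtful libraries (0.0876).

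Metabolic status was compared in each tissue. In none of the 12 comparisons (heifers, non-lactating and lactating cows pairwise in 4 tissues) was a respiratory chain gene called, by edgeR or by DESeq2. Over all genes, edgeR called 1 gene in the ipsilateral isthmus, in non-lactating cows against heifers (0.0073% of all genes), and 0% in the other 11. The share of all genes called by DESeq2 is not given here, so its result cannot be set against a background. The paper, which used DESeq2, reported genes that differed between heifers and each cow group in the ipsilateral isthmus. Between 0 and 7 of the respiratory chain genes passed an unadjusted p under 0.05 in a comparison, the most (7, all lower) in lactating against non-lactating cows in the ipsilateral ampulla (3.57% of all genes there, and 3.57% to 11.8% over the 12 comparisons), and the smallest adjusted p was 0.321. The median log2 fold change over the respiratory chain genes lay between -0.17 (lactating cows against heifers, contralateral ampulla) and 0.11 (non-lactating cows against heifers, ipsilateral ampulla). Non-lactating cows against heifers in the contralateral ampulla had a median of -0.0058, which was 0.18 without Heifer E. Without the doubtful libraries the medians in the ipsilateral ampulla were 0.16 (non-lactating cows against heifers), -0.026 (lactating cows against heifers) and -0.15 (lactating against non-lactating cows), with 0 genes called by edgeR.

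Several subunits of cytochrome c oxidase and the c subunit of ATP synthase are encoded by paralogous genes with their own tissue patterns. COX4I1 was at 30.6 to 155 CPM over the 56 libraries, while COX4I2 had 0 counts in every library. COX6A1 was at 61.7 to 393 CPM and its muscle paralogue COX6A2 had 0 counts throughout. In each library 28.3% to 50.1% of alignments were assigned to no gene, and those that were not unique were not counted. Whether COX4I2 and COX6A2 were truly not expressed was not tested. COX6B1 was at 86.3 to 544 CPM, and COX6B2, known from testis, at 0 to 2.23 CPM with counts in 39 libraries. COX7A2 was at 54.3 to 153 CPM and COX7A2L at 117 to 515 CPM, both with counts in every library, and COX8A at 55.9 to 259 CPM. COX8B was not analysed here. CPM values are not divided by transcript length, so they were compared between tissues for a gene and not between genes.

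The condition means of these paralogues followed different orders. COX7A1 ran from 2.32 ± 0.63 CPM in the contralateral isthmus of non-lactating cows to 8.12 ± 4.3 CPM in the contralateral ampulla of heifers, and its 6 isthmus means were all below its 6 ampulla means. COX7A2 ran from 73.4 ± 14 CPM in the contralateral isthmus of heifers to 127 ± 29 CPM in their ipsilateral isthmus, with the 3 contralateral isthmus means at the bottom. COX8A had the same 3 tissues at the bottom, at 74.7 ± 11, 74.8 ± 9.1 and 77.3 ± 16 CPM, which lay within 1 SD of each other, and the other 9 means ran from 109 ± 19 to 143 ± 66 CPM. ATP5G1 ran from 7.94 ± 1.7 to 20.0 ± 3.5 CPM, both in heifers and both in the isthmus, and its other 10 means, from 9.45 ± 3.8 to 14.6 ± 12 CPM, overlapped in their spread. ATP5G3 ran from 9.14 ± 3.9 CPM in the contralateral isthmus of non-lactating cows to 19.6 ± 4.8 CPM in the ipsilateral ampulla of heifers, and its 6 ipsilateral means were all above its 6 contralateral means. ATP5G2 ran from 94.6 ± 18 CPM in the ipsilateral ampulla of heifers to 175 ± 82 CPM in their contralateral ampulla.

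COX7C, a small subunit of cytochrome c oxidase, differed between animals rather than between conditions. All 28 libraries of 7 animals (Heifers A and D, Non-lactating A and D, Lactating A, C and D) held at most 2 counts, up to 0.40 CPM. All 28 libraries of the other 7 animals held 9 to 135 counts, from 4.56 to 26.5 CPM, with no library in between. Of the variance of log2 CPM within conditions, 96.6% lay between animals, and the next gene, NDUFB5, reached 52.4%. Among the animals with counts, Heifer E reached the highest COX7C value, 26.5 CPM, and Heifer C spanned 12.6 to 24.1 CPM over its 4 libraries. The 2 animals whose numbers fall in another group for the ipsilateral ampulla, Lactating B (6.76 to 9.09 CPM) and Non-lactating C (4.69 to 15.4 CPM), both had counts in all 4 libraries.

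The 7 symbols that matched the pattern but not the level rule were COX4I2 and COX6A2 at 0, COX7ALP1 at 0.0070 CPM, COX7B2 at 0.378 CPM, NDUFV2 at 0.406 CPM, NDUFA4L2 at 0.448 CPM and COX6B2 at 0.496 CPM on average over the libraries. NDUFV2 encodes a core subunit of complex I, whose other core subunit NDUFS1 was at 82.3 to 149 CPM. In each complex the genes with the most and the fewest counts were NDUFS1 and NDUFB1 (mean 106 and 2.07 CPM), UQCRH and UQCRQ (108 and 4.30 CPM), COX7A2L and COX7A1 (315 and 4.47 CPM), and ATP5C1 and ATP5SL (286 and 6.59 CPM).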

How the data were processed

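The authors mapped 100-base single-end reads with TopHat2 (2.0.13) to Btau_4.6.1 and counted them per gene with HTSeq (0.6.1), stranded and in intersection-strict mode, and the deposited values are raw counts. Depth was 1901454 to 6836850 counts per library, and precision is limited to counting error and the spread between animals. The 104 pairs of libraries of one condition all differed beyond sampling noise (chi-square per degree of freedom at least 5.20), so none was merged. Tests used edgeR 4.0.16 (R 4.3.3, limma 3.58.1): TMM scaling, a filter with a minimum count of 10, the quasi-likelihood test and Benjamini-Hochberg adjustment over all genes tested, with a threshold of 0.05. Each comparison was fitted on its own libraries, and the mean of the 3 groups on the libraries of that tissue pair. In plots, log2 CPM carries a prior count of 2. Rows that name no gene were left out.

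Animal numbers in the column names pair libraries. Deviations from group means correlated within animals (median r 0.39 over 14 isthmus pairs, 11 above 0.1, lowest -0.043, and 0.27 over 12 ampulla pairs). The blocked fit is therefore given beside some results, but not for every count that it changed. Alternatives were DESeq2 1.42.0, relative log expression size factors, no filter, all 56 libraries in a single fit, the animal as a block, omission of doubtful libraries, and omission of each animal. The block together with omission of doubtful libraries was added after the data were seen. The test scripts were checked on simulated counts.

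The genes and lists were chosen with earlier results of these data known. By rule, values are given for the 3 called genes with the largest change in each direction (isthmus sides within groups, regions) or the 2 largest (other comparisons), genes called in the isthmus of all 3 groups, paralogous isoforms, and the highest and lowest mean CPM per complex. Other genes (ATP5A1, ATP5B, COX7C and UQCRB in lactating cows among them) were named after their values were seen. Symbols are those of the table. All 67 matched RefSeq symbols, 17 of them (the ATP5 genes) as older symbols, and no coordinates are given since the builds differ. NDUFA1, NDUFA10, NDUFS6, NDUFAB1, COX6C, COX7B, COX8B, SDHA, SDHD and the mitochondrially encoded subunits were not analysed here, and 1 gene of the group is counted but its values are not reported here.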

Additional observations from a re-analysis of the deposited data

Results flagged for a closer look

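The side difference in the isthmus and that in the ampulla differed by the interaction test for 20 respiratory chain genes, all with a larger ipsilateral excess in the isthmus. The largest values among them were those of NDUFA3, at 0.97 on the log2 scale, and ATP5G1, at 0.94. Without Heifer E, whose contralateral ampulla held the highest level of these genes, 8 genes were called by edgeR and ATP5G1 was at 0.74 (adjusted p = 0.118). Dixon's test for a value far from the others was run on 28 groups of values from 4 or 5 libraries, and 0 were flagged. These checks did not cover every gene in every condition, so the absence of a flag does not mean that no library stood apart. In the contralateral ampulla, ATP5D reached 195 CPM in Heifer E, against a median of 62.3 CPM over all animals (n = 14).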

How the results depend on the processing

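No count or named gene changed direction under any alternative. In a single fit of all 56 libraries, the number of respiratory chain genes called between the isthmus sides was 21 in heifers, 6 in non-lactating and 1 in lactating cows. DESeq2 called 7 in the isthmus of non-lactating cows, 11 in that of lactating cows and 2 in the ampulla of non-lactating cows. With the animal as a replicate block it was 4 and 6 in the isthmus of non-lactating and lactating cows, and no other count moved by more than 1.5 times. Without the doubtful ampulla libraries the interaction of side and region gave 8. With these left out and the animal as a block, the interaction gave 11 and the ampulla side comparison of the 3 groups gave 5. The cause was not tested. Under alternatives other than leaving out an animal, 118 counts stayed within 1.5 times and 11 did not, and named genes kept their call 129 times and lost it 10 times. Leaving out an animal, they kept it 241 times and lost it 37 times. When each animal was left out, calls in the isthmus ran from 7 to 34 (heifers), 0 to 10 (non-lactating), 0 to 0 (lactating) and 49 to 59 (3 groups), in the ampulla from 0 to 1 (non-lactating) and 6 to 11 (3 groups), between regions from 28 to 35 (ipsilateral) and 28 to 36 (contralateral), and for the interaction from 8 to 23. All other counts stayed at 0. Shares of all genes were not set beside counts from fits that left out an animal or the doubtful libraries. Depth limits the rarest genes, of which NDUFB1 averaged 2.07 CPM.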
